A study of Mus musculus with 13 samples.

Results

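The genes for the transforming growth factor beta (TGF-beta) ligands and their receptors were followed through mouse heart development. The set holds the ligands Tgfb1, Tgfb2 and Tgfb3, the signalling receptors Tgfbr1, Tgfbr2 and Acvrl1, and the co-receptors Tgfbr3 and Eng. These 8 genes were taken by symbol from the 27998 genes of the count matrices, with no filter on their values, and all 8 were present in all 10 matrices. The set was chosen with earlier results of these data known.

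TGF-beta ligands are secreted in latent complexes and, once released, bind the type II receptor encoded by Tgfbr2, which then recruits and activates the type I receptor encoded by Tgfbr1 or, in endothelium, by Acvrl1. Tgfbr3 (betaglycan) and Eng (endoglin) carry no kinase and present ligand to the signalling receptors, and Acvrl1 with Eng also forms the endothelial receptor for BMP9 and BMP10. In the embryonic heart the pathway is known for the conversion of endocardium to cushion mesenchyme, for valve remodelling and for the deposition of matrix by fibroblasts.

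Cells came from wild-type C57Bl/6J mice at 6 stages, from embryonic day 8.5 (E8.5) to postnatal day 3 (P3), and were sequenced as droplet single-cell 3' libraries, in which each molecule is counted once by its unique molecular identifier (UMI). Embryos were used at E8.5 and E10.5 with the head and limbs removed, and dissected hearts from E12.5 on, with no treatment or transgene in any group. The 13 sample records gave 10 matrices, with 1 library at E8.5, 2 at each of the other embryonic stages and 1 at P3 that pooled 2 records. The number of animals behind a library was not stated, so p-values measure the spread between these libraries, which may be technical.

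Barcodes with at least 2000 UMIs were kept, 80741 in all, and 1 class was given to a barcode that met exactly 1 gate. Cardiomyocyte-gated cells had Tnnt2 at 10 or more per 10000 UMIs and no Cdh5, endocardial-gated cells had Cdh5 and Npr3, coronary-gated cells had Cdh5 and at least 2 UMIs of Fabp4, mesenchyme-gated cells had at least 2 UMIs of Col1a1 with Sox9, fibroblast-gated cells had at least 2 UMIs of Col1a1 with Tcf21, and macrophage-gated cells had at least 2 UMIs of C1qa. The gates held 26921, 2953, 1050, 2625, 936 and 382 barcodes in that order. UMIs were summed per class and library, and a level is given in CPM, the UMIs of a gene per 1000000 UMIs of that sum. Sums of under 20 barcodes are left out of the levels and ranges below. In the heart libraries these were the coronary and macrophage gates at E12.5. Since reads were counted at the 3' end and not per length, levels are compared between classes and stages of 1 gene and not between genes.

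Libraries held 67141166 to 259041468 UMIs, and any pair of libraries shared 27 to 264 kept barcodes, at most 2.42% of either. Each gate of the hearts held its own marker list, but also RNA of other cells. In the embryonic hearts the endocardial gate held 2129 to 3145 CPM of 8 cardiomyocyte markers and 1247 to 2257 of 9 erythroid markers, against 767 to 1011 of its 5 endocardial and 1412 to 1891 of 6 general endothelial markers. The coronary gate held 973 to 1989 of the cardiomyocyte markers at E14.5 and 2028 to 3375 at E16.5, against 1230 to 1233 and 2583 to 2708 of its 6 coronary markers, and the mesenchyme gate at E12.5 held 2089 to 2197 of the erythroid markers, against 1438 to 1488 of its 6 cushion and valve markers. Low-count barcodes, those with under 100 UMIs, hold mostly free RNA and are set beside the levels of the embryonic libraries below. They held 19830 to 22321 of the cardiomyocyte and 52696 to 71056 of the erythroid markers. The cardiomyocyte gate held 954 to 2252 of the erythroid markers. A CPM of these barcodes gives the make-up of free RNA, not the amount it adds to a cell. The part of such RNA in the members' values was not tested. At E12.5 the fibroblast gate held 1156 to 1247 CPM of the 6 epicardial markers against 741 to 811 of the 6 fibroblast markers, and 77.2% and 77.4% of its barcodes carried a UMI of the epicardial genes Upk3b, Upk1b, Msln or Krt19, so it is called fibroblast-gated only by its rule. At E16.5 those lists were at 377 to 405 and 3845 to 4416. The mesenchyme gate held more of the fibroblast list than of the cushion and valve markers from E14.5 on (1744 to 1856 against 1171 to 1260 at E14.5). The mesenchyme gate of the E10.5 embryos held 153 to 171 CPM of the cushion and valve markers, against 1438 to 1488 in E12.5 hearts, and E8.5 was lower still at 146.

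Of the ligands, Tgfb1 was highest in macrophage-gated and endothelial cells, Tgfb2 in mesenchyme-gated cells, and Tgfb3 in mesenchyme-gated and fibroblast-gated cells. Tgfb1 in macrophage-gated cells went from 207 and 222 CPM in the E14.5 libraries to 167 and 132 in those of E16.5, with 243 at P3. Coronary-gated cells went from 153 and 148 to 103 and 130.2 over the same stages, and endocardial-gated cells from 126 and 116 to 98.1 and 111. At E14.5 these 3 classes did not overlap in their libraries, while at E16.5 the coronary and endocardial ranges overlapped. Cardiomyocyte-gated cells lay at 2.04 to 2.97 in the 6 heart libraries of the embryo, under the 7.88 to 20.6 of the low-count barcodes of the same libraries. Over E14.5 and E16.5 Tgfb1 in macrophage-gated cells exceeded the mean log2 level of the other 5 classes by 2.84 ± 0.13 (SE, edgeR quasi-likelihood test, Benjamini-Hochberg adjusted p = 8.47e-20). That mean includes the low cardiomyocyte level. Mean levels at E16.5 were 149 CPM in macrophage-gated and 117 in coronary-gated cells.

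**Figure D1:**
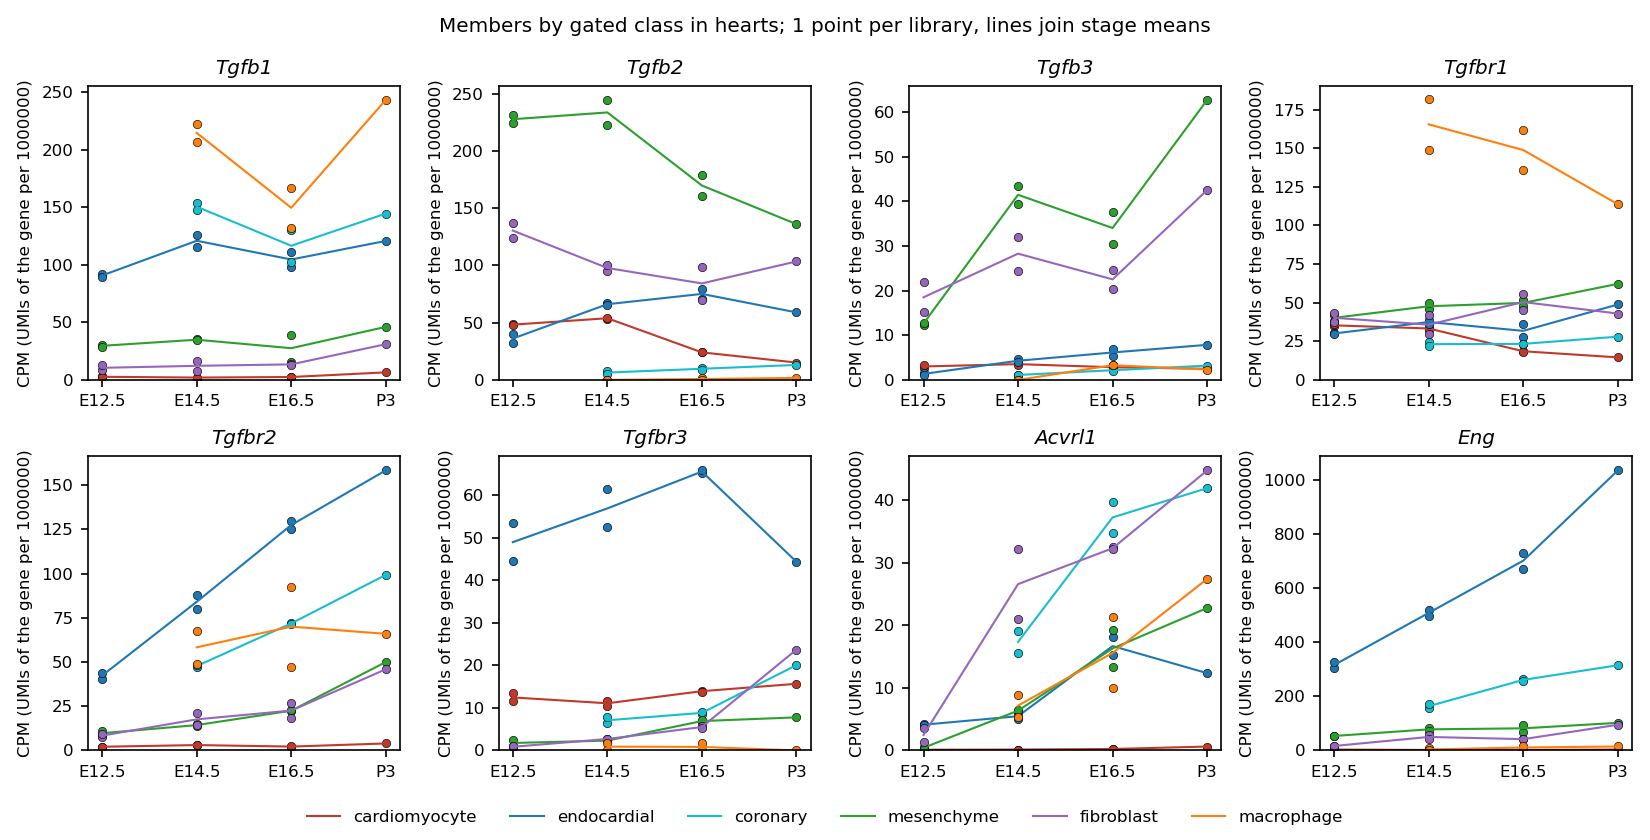
Level of each of the 8 genes in CPM (vertical axis, linear and separate for each gene) from E12.5 to P3 in the 6 gated classes of dissected hearts. Each point is 1 library with at least 20 barcodes and lines join the means of a stage. Tgfb2 stands highest in mesenchyme-gated cells at every stage shown, and Eng and Tgfbr2 climb in endocardial-gated cells.

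Tgfb2 in mesenchyme-gated cells went from 231 and 224 CPM at E12.5 through 244 and 223 at E14.5 to 160.3 and 179 at E16.5, with 136 at P3 (exact 95% Poisson interval 120.3 to 154, counting error only, with 157 and 121 in the barcodes of the 2 pooled records). Fibroblast-gated cells came next with 124 and 137, then 94.9 and 101, then 98.9 and 69.7. Each of the 6 heart libraries had more Tgfb2 in its mesenchyme-gated than in its fibroblast-gated cells. The difference over the 3 stages was 0.88 ± 0.08 on the log2 scale (adjusted p = 2.06e-11). Cardiomyocyte-gated cells ranged from 24.0 to 54.1 in the heart libraries of the embryo, coronary-gated cells from 5.34 to 10.4 at E14.5 and E16.5, and macrophage-gated cells held 0 Tgfb2 UMIs in 3 of 4 libraries and 1 UMI in the other. Low-count barcodes held 18.9 to 41.3. After thinning every cell to 2000 UMIs, 31.9% and 32.4% of mesenchyme-gated cells at E12.5 had a Tgfb2 UMI, against 0 of 52 and 0 of 40 macrophage-gated cells at E14.5 (upper 95% limits 6.85% and 8.81%). Unthinned, the shares were 87.4% and 85.9% at median depths of 17360.5 and 15939 UMIs, and 0 of the same macrophage-gated cells at 11156.5 and 9160 UMIs.

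Tgfb2 lies on mouse chromosome 1, on the minus strand, and its promoter is shown because the gene changed in opposite directions in endocardial and muscle cells. The 250 bases before its RefSeq start (build GRCm38.p6, chr1:186705990-186706239, minus strand, GC content 53.6%) hold 1 copy of AGGAA, the core letters of the motif of ETS transcription factors, here in its reverse complement TTCCT at -184. The match is in capitals, and positions count back from -1 at the base before the start.
Tgfb2 promoter: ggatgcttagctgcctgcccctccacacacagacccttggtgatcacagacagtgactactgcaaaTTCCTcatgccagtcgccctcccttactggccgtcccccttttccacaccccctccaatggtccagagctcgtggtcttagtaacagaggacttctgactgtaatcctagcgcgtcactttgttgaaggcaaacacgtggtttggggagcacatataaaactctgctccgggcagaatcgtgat
At least 1 AGGAA on either strand occurs in 60.3% of the 32851 RefSeq promoters of that length, so a match is common and is given as a description.

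Tgfb3 was the ligand that rose in mesenchyme-gated cells. Its levels there went from 12.4 and 12.9 CPM at E12.5 through 39.5 and 43.5 at E14.5 to 30.4 and 37.7 at E16.5, with 62.7 at P3. In fibroblast-gated cells they were 15.2 and 21.9, then 32.1 and 24.5, then 24.7 and 20.4, and 42.5 at P3. Mesenchyme-gated cells thus started below fibroblast-gated cells at E12.5 and stood above them at E14.5 and E16.5, with no overlap between libraries at any of the 3 stages. At E12.5, however, 77.2% and 77.4% of fibroblast-gated barcodes carried an epicardial marker UMI. The change to E16.5 was 1.13 larger on the log2 scale in mesenchyme-gated cells, and 0.16 larger without such barcodes. Over those stages together the classes differed by 0.05 ± 0.13 on the log2 scale (adjusted p = 0.874). All other classes held at most 6.88 in the heart libraries of the embryo, with low-count barcodes at 2.42 to 7.78.

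The kinase receptors were arranged otherwise. Tgfbr1, the type I receptor for TGF-beta, was present in all classes and highest in macrophage-gated cells, at 182 and 149 CPM in the E14.5 libraries and 136 and 162 in those of E16.5. The other classes lay between 18.3 and 55.8 in the heart libraries of the embryo, the coronary gate from E14.5 on. Tgfbr2, the ligand-binding type II receptor, was highest in endocardial-gated cells, from 40.6 and 44.0 at E12.5 through 87.9 and 80.1 at E14.5 to 125 and 129.9 at E16.5, with 158 at P3. Acvrl1, the type I receptor of endothelium, was highest in coronary-gated and fibroblast-gated cells from E14.5 on, while at E12.5 the fibroblast-gated cells, at 1.38 and 3.56, lay below the endocardial-gated cells, at 4.23 and 3.99. At E16.5 it was 34.8 and 39.7 in coronary-gated and 32.5 and 32.2 in fibroblast-gated cells, against 15.3 and 18.1 in endocardial-gated and 13.4 and 19.2 in mesenchyme-gated cells. The latter pair overlapped in their libraries, and the former did not. Acvrl1 shares exon bases with Gm16031 on the opposite strand, as Tgfb2 does with Gm29491, Tgfb3 with Gm37804 and Gm48008, and Eng with Fpgs. Cell Ranger at its default settings, which the study's methods name, sets antisense reads apart. Tgfbr3 shares exon bases with Gm43422 on the same strand, so reads of that pair may not be told apart.

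Both co-receptors were highest in endocardial-gated cells, but Eng was not confined to them. In the heart libraries of the embryo mesenchyme-gated cells held 53.0 to 94.6 CPM of Eng and fibroblast-gated cells 15.8 to 57.2. At E12.5 the fibroblast-gated cells lay at 15.8 to 17.2, under the 39.1 and 44.2 of low-count barcodes. Tgfbr3 in endocardial-gated cells went from 44.5 and 53.5 CPM at E12.5 through 61.4 and 52.5 at E14.5 to 65.3 and 65.8 at E16.5, while no other class passed 14.1 in the heart libraries of the embryo. Eng in endocardial-gated cells ran from 305 and 328 at E12.5 through 521 and 498 at E14.5 to 674 and 732 at E16.5, against 157 to 266 in coronary-gated cells at E14.5 and E16.5 and 1.56 to 3.26 in cardiomyocyte-gated cells. The cardiomyocyte level was below the 31.0 to 46.7 of low-count barcodes. After thinning to 2000 UMIs, 71.1% and 76.5% of endocardial-gated cells at E16.5 had an Eng UMI, against 0.46% and 0.35% of cardiomyocyte-gated cells. Unthinned, these shares were 97.8% and 98.5% at median depths of 11416 and 9763 UMIs and 2.7% and 2.1% at 18545 and 12791 UMIs.

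Endothelium, taken as the mean of the endocardial and coronary gates, was compared with the other 4 classes over E14.5 and E16.5. Eng (log2 difference 4.60 ± 0.07, adjusted p = 6.08e-36), Tgfb1 (2.55 ± 0.07, adjusted p = 1.85e-26), Tgfbr2 (2.28 ± 0.07, adjusted p = 2.52e-25) and Acvrl1 (1.58 ± 0.13, adjusted p = 5.23e-13) were higher and Tgfbr1 (-0.96 ± 0.07, adjusted p = 2.66e-14) was lower. These average the log2 levels of classes of unlike level, as do the cardiomyocyte and macrophage comparisons below, so a class near 0 CPM lowers the mean. Mean Acvrl1 at E14.5 was 5.47 CPM in endocardial-gated and 17.3 in coronary-gated cells. The fibroblast, macrophage, mesenchyme and cardiomyocyte gates held 26.6, 7.17, 6.36 and 0.14. Mean Tgfbr1 at E16.5 was 31.8 and 23.3 in the endothelial gates, above the 18.6 of cardiomyocyte-gated cells. The macrophage, fibroblast and mesenchyme gates held 149, 50.4 and 49.9. All 5 members that could be compared passed the test, where 46% of the 12987 genes tested did. Tgfb2, Tgfb3 and Tgfbr3 had 3 UMIs or fewer in a group and were given no fold. In cardiomyocyte-gated cells the same 5 were lower than the mean of the other 5 classes, from -0.76 ± 0.06 for Tgfbr1 to -6.14 ± 0.31 for Acvrl1 (largest adjusted p = 5.96e-14, 66.5% of all genes called). In macrophage-gated cells Tgfb1, Tgfbr1 (2.29 ± 0.11) and Tgfbr2 (1.52 ± 0.17) were higher and Eng (-3.22 ± 0.28) lower, with 5 of 5 members passing against 46.5% of all genes. The fifth, Acvrl1, had a macrophage mean of 15.6 CPM at E16.5, above only the 0.23 of the cardiomyocyte gate. At E14.5 it lay under the fibroblast and coronary gates. Its difference from the mean log2 level was borderline at 0.84 ± 0.34 (adjusted p = 0.046), and with the library as a block its adjusted p was 0.056. Without E14.5 replicate 2 the difference was 0.99 (adjusted p = 0.058).

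The endocardial and coronary gates differed in all 8 genes over E14.5 and E16.5, where 48.7% of 12987 genes passed. Tgfb2 was 3.06 ± 0.13 higher on the log2 scale in endocardial-gated cells (adjusted p = 5.54e-20), Tgfbr3 2.88 ± 0.13 (adjusted p = 9.73e-20), Tgfb3 1.63 ± 0.33 (adjusted p = 8.93e-05), Eng 1.45 ± 0.07 (adjusted p = 1.29e-18) and Tgfbr2 0.74 ± 0.09 (adjusted p = 4.42e-09). Tgfb3 rested on 7 UMIs in coronary-gated cells at E14.5. Acvrl1 was the member most shifted towards coronary cells, at -1.49 ± 0.16 (adjusted p = 4.13e-10). Tgfb1 was also lower in endocardial-gated cells, at -0.31 ± 0.09 (adjusted p = 0.0033), and Tgfbr1 higher, at 0.49 ± 0.11 (adjusted p = 0.00043), which without E16.5 replicate 1 was 0.32 (adjusted p = 0.088). The median of the 8 was 1.10 against 0.11 for all genes.

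Other genes of the pathway were compared between both endothelial gates, where 48.7% of all genes passed. List counts here and below leave out genes with 3 UMIs or fewer in a group. Of 9 genes that store or release latent ligand, 8 were higher in endocardial-gated cells and 1 lower. They were led by Ltbp1 (2.78 ± 0.12, adjusted p = 5.01e-20) and Ltbp3 (2.56 ± 0.22, adjusted p = 7.14e-12), which encode latent TGF-beta binding proteins, and Fbn1 (2.25 ± 0.09, adjusted p = 6.70e-21), the fibrillin of microfibrils that anchor them. The lower gene was Nrros (-2.41 ± 0.29, adjusted p = 1.16e-08), which tethers latent ligand on myeloid cells. Of 12 genes known to respond to TGF-beta, 5 were higher and 3 lower, with the matrix genes Postn (4.14 ± 0.16), Tgfbi (3.09 ± 0.21) and Fn1 (3.08 ± 0.10) higher (largest adjusted p = 8.06e-15) and the transcription factor Snai2 lower (-2.27 ± 0.20, adjusted p = 1.28e-11). Among ligands and responders of Acvrl1 and Eng, Id2 (3.26 ± 0.11, adjusted p = 1.11e-23) and Tmem100 (3.00 ± 0.11, adjusted p = 6.58e-22) were higher and Id1 lower (-0.39 ± 0.13, adjusted p = 0.0131).

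From E12.5 to E16.5 the endocardial gate gained receptors. Tgfbr2 rose by 1.40 ± 0.10 on the log2 scale (adjusted p = 4.50e-10), Eng by 0.96 ± 0.09 (adjusted p = 1.27e-08) and Acvrl1 by 1.82 ± 0.22 (adjusted p = 7.28e-07), the last from 4.23 and 3.99 CPM. Of the ligands, Tgfb2 rose by 0.87 ± 0.12 (adjusted p = 4.84e-06), from 32.4 and 39.9 to 79.7 and 70.6. Tgfb3 rose by 2.00 ± 0.38 (adjusted p = 0.00017), from 1.65 and 1.03 to 5.42 and 6.88. Tgfb1, Tgfbr1 and Tgfbr3 did not pass (log2 changes 0.01 ± 0.10, -0.08 ± 0.14 and 0.23 ± 0.12), although Tgfbr3 did without E12.5 replicate 2 (0.35, adjusted p = 0.029). Thus 5 of 8 members passed, where 45.1% of 10946 genes did, and the median change was 0.92 against 0.01 for all genes. Over the same stages the summed level of 6 coronary markers in this gate went from 98.1 to 106 at E12.5 to 402 to 454 CPM at E16.5, with Apln at 0, while the 5 endocardial markers went from 767 to 782 to 988 to 1011. Their part in these changes was not tested.

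Eng lies on chromosome 2 and Tgfbr2 on chromosome 9, and their promoters are shown because both genes rose in both endothelial gates. Each holds AGGAA at 2 places in the 250 bases before the RefSeq start (GRCm38.p6), as do at least 26.0% of all promoters of that length. In Eng (chr2:32646345-32646594, plus strand, GC content 62.4%) the matches, in capitals, are at -51 as the reverse complement and at -6. In Tgfbr2 (chr9:116175364-116175613, minus strand, GC content 58.4%) they are at -238 and -56.
Eng promoter: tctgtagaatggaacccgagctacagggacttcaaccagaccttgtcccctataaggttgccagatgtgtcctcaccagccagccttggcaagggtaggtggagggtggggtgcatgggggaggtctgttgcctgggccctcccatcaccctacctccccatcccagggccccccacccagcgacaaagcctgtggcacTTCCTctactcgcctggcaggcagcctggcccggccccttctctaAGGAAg
Tgfbr2 promoter: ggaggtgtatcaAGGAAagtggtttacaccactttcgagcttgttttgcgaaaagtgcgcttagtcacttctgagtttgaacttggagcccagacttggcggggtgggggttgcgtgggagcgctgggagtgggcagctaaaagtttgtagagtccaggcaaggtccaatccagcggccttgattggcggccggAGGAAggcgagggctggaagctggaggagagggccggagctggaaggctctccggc

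Coronary-gated cells numbered 19 and 18 at E12.5, so their change was taken from E14.5 to E16.5. Acvrl1 rose by 1.04 ± 0.17 (adjusted p = 0.00155), from 19.0 and 15.7 to 34.8 and 39.7 CPM, and Eng rose by 0.63 ± 0.11 (adjusted p = 0.00163), from 157 and 171 to 266 and 256. Tgfbr2 rose by 0.54 ± 0.12 (adjusted p = 0.0097), from 47.0 and 48.4 to 71.9 and 71.7, and Tgfb1 fell by 0.42 ± 0.12 on the log2 scale (adjusted p = 0.030). The call for Tgfbr2 was lost without E14.5 replicate 1 (0.51, adjusted p = 0.060), and that for Tgfb1 without E14.5 replicate 1 (adjusted p = 0.10), without E14.5 replicate 2 (adjusted p = 0.065) or without E16.5 replicate 1 (-0.28, adjusted p = 0.22). With DESeq2 neither passed. Thus 4 of 7 tested members passed, against 16.3% of 9990 genes, and the summed coronary marker level in the gate went over the same interval from 1230 to 1233 to 2583 to 2708 CPM. Marker sums of other cells were also higher there at E16.5, going from 973 to 1989 to 2028 to 3375 for cardiomyocytes, from 15.9 to 16.7 to 32.3 to 43.1 for fibroblasts, from 12.4 to 17.6 to 36.7 to 44.1 for cushion and valve mesenchyme and from 29.9 to 52.5 to 62.3 to 73.2 for mural cells, and their part was not tested. Around these receptors Id2 (1.81 ± 0.17), Id1 (1.47 ± 0.14) and Id3 (0.64 ± 0.10), which respond to BMP signalling through Acvrl1, all rose (largest adjusted p = 0.00115), as did the inhibitory Smads Smad7 (1.52 ± 0.17, adjusted p = 8.50e-05) and Smad6 (1.11 ± 0.24, adjusted p = 0.0065). The endocardial and fibroblast gates, in which Acvrl1 also rose, differed from this. From E12.5 to E16.5 endocardial-gated cells had Id1 higher (0.28 ± 0.10, adjusted p = 0.028) and Id3 lower (-0.31 ± 0.10, adjusted p = 0.012). In fibroblast-gated cells Id2 (-1.36 ± 0.13, adjusted p = 1.38e-08) and Id1 (-0.49 ± 0.14, adjusted p = 0.0115) fell. Barcodes of the fibroblast gate with an epicardial marker UMI went from 77.2% and 77.4% to 14.3% and 11.1% over those stages. Their part in these falls was not tested.

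The change from E14.5 to E16.5 did not pass a test of difference between the endocardial and coronary gates for any of the 8 genes: 0 of 8 members passed with edgeR or with DESeq2, against 2.34% of 12987 genes, and 0 had an unadjusted p under 0.05 with edgeR. The difference of changes was 0.49 ± 0.32 for Acvrl1 and -0.21 ± 0.14 for Eng (endocardial minus coronary), and differences of that size could not be told from 0 in these libraries. Among ligands and responders of Acvrl1 and Eng, Id2 (-1.45 ± 0.23, adjusted p = 0.00012) and Id1 (-0.99 ± 0.26, adjusted p = 0.032) did pass with edgeR.

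**Figure D2:**
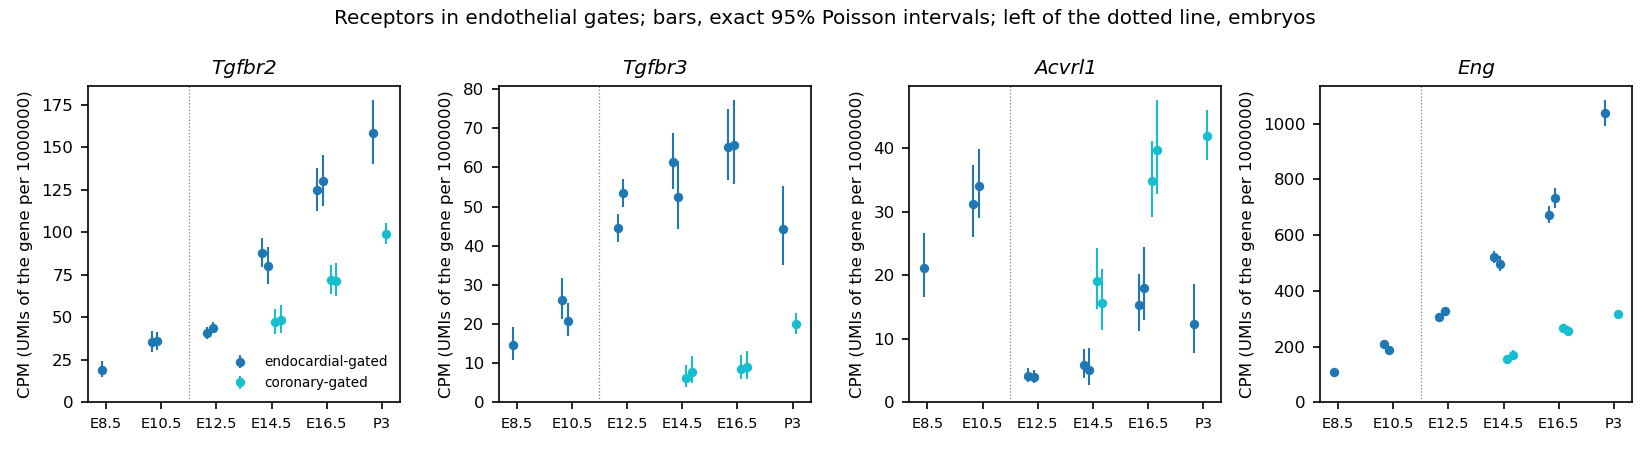
Tgfbr2, Tgfbr3, Acvrl1 and Eng in CPM (linear vertical axes) in endocardial-gated and coronary-gated cells by stage. Each point is 1 library with at least 20 barcodes, bars are exact 95% Poisson intervals, and the dotted line separates embryos from dissected hearts. Endocardial Acvrl1 is at 31.3 and 34.1 in E10.5 embryos and at 4.23 and 3.99 in E12.5 hearts, while Eng is higher at each later stage.

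In the embryos, before hearts were dissected, the endocardial gate takes any Cdh5 and Npr3 cell of the trunk, and its summed endocardial markers stood at 598 to 667 CPM. Eng went there from 109 at E8.5 (98.3 to 121) to 208 and 187 at E10.5, and Tgfbr2 from 19.1 (14.7 to 24.4) to 35.6 and 35.8. Acvrl1 went the other way across the change of tissue, from 21.2 (16.55 to 26.7) and then 31.3 and 34.1 to 4.23 and 3.99 at E12.5. Stage and tissue cannot be told apart in this step, and it was not tested. At P3 Eng was 1037 in endocardial-gated cells (990.3 to 1085) and 316 in coronary-gated cells (305 to 326). The barcodes of both P3 records differed in coronary-gated cells, with Eng at 235 and 400 and Tgfb1 at 111 and 179, and the summed erythroid marker level of that gate was 4155, so P3 levels of this gate are given as values of the pool.

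In mesenchyme-gated cells 6 members rose and 1 fell from E12.5 to E16.5, where 27.2% of 11146 genes were called. Acvrl1 changed most, from 0.53 and 0.31 CPM to 13.4 and 19.2 (5.30 ± 0.44 on the log2 scale, adjusted p = 6.79e-10), with 7 UMIs in all at E12.5. Tgfb3 rose by 1.49 ± 0.18 (adjusted p = 6.14e-07), Tgfbr2 by 1.27 ± 0.22 (adjusted p = 9.31e-05), from 8.45 and 11.03 to 22.2 and 22.8, Tgfbr3 by 2.1 ± 0.47 (adjusted p = 0.00137) and Eng by 0.67 ± 0.14 (adjusted p = 0.00052). Tgfbr3, on 23 UMIs in the smaller group, went from 1.12 to 2.38 CPM at E12.5 to 6.70 to 7.11 at E16.5. Low-count barcodes held Tgfbr3 at 6.74 and 9.14, then 9.76 and 6.46, and the part of free RNA was not tested. Tgfb2 fell by 0.34 ± 0.10 on the log2 scale (adjusted p = 0.0118), a call lost without E16.5 replicate 1 (-0.30, adjusted p = 0.092). Tgfbr1 rose by 0.41 ± 0.14 (adjusted p = 0.035), a call lost without E12.5 replicate 2 (0.34, adjusted p = 0.14), E16.5 replicate 1 (0.29, adjusted p = 0.36) or E16.5 replicate 2 (0.49, adjusted p = 0.051). Tgfb1 split the E16.5 libraries at 15.98 and 39.1 and did not pass (-0.10 ± 0.22). Without E16.5 replicate 2 it did, at -0.78 (adjusted p = 0.024), and without replicate 1 it turned to 0.44.

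The gate itself changed over these stages. The 6 cushion and valve markers went from 1438 to 1488 CPM at E12.5 to 754 to 852 at E16.5, and the 6 fibroblast markers from 928 to 994 to 2959 to 3216. The part of this in the members' changes was not tested. Of the 13 TGF-beta responders 5 rose and 4 fell, with the matrix gene Postn (1.83 ± 0.09, adjusted p = 1.39e-14) rising and Tgfbi (-2.11 ± 0.11, adjusted p = 2.02e-13) and Twist1 (-1.63 ± 0.12, adjusted p = 4.44e-11) falling. Of 9 genes of latent complexes 5 rose and 2 fell, against 27.2% of all genes called. Dcn, the ligand-binding proteoglycan decorin and a fibroblast gene, changed most (5.13 ± 0.10, adjusted p = 3.15e-22), while Ltbp1 fell by 1.42 ± 0.12 on the log2 scale (adjusted p = 1.25e-09).

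In fibroblast-gated cells 4 of 7 tested members passed, against 22% of 8399 genes. Acvrl1 rose by 3.65 ± 0.41 (adjusted p = 2.36e-07), from 1.38 and 3.56 CPM to 32.5 and 32.2, with 9 UMIs in all at E12.5. Tgfbr2 rose by 1.52 ± 0.35 (adjusted p = 0.0020), Eng by 1.42 ± 0.25 (adjusted p = 0.00016), and Tgfb2 fell by 0.52 ± 0.17 on the log2 scale (adjusted p = 0.025). Eng went from 15.8 to 17.2 CPM at E12.5, under the level of low-count barcodes, to 41.7 to 41.8 at E16.5. Since the E12.5 gate was rich in epicardial markers, the fit was repeated without barcodes carrying a UMI of Upk3b, Upk1b, Msln or Krt19, which left 18 and 26 barcodes at E12.5 and 1 library there in the fit, which is assumed to vary like those of the other stages. The changes were then -1.05 for Tgfb2 (adjusted p = 0.0020), 0.95 for Tgfbr2 (adjusted p = 0.42) and 0.36 for Eng (adjusted p = 0.58), with no replicate behind the E12.5 value. Acvrl1 then had 3 UMIs or fewer at E12.5 and was given no fold. The call for Tgfb2 was also lost without E12.5 replicate 2 (-0.44, adjusted p = 0.14) or E16.5 replicate 2 (-0.31, adjusted p = 0.37), while without E16.5 replicate 1 its value was -0.83, and that for Tgfbr2 without E16.5 replicate 1 (1.17, adjusted p = 0.12).

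Set against each other over 3 stages, mesenchyme-gated cells had more Tgfb1 (1.18 ± 0.19, adjusted p = 5.91e-06), Eng (0.98 ± 0.11, adjusted p = 6.03e-09) and Tgfb2, and less Acvrl1 (-2.05 ± 0.28, adjusted p = 4.94e-07), than fibroblast-gated cells. Thus 4 of 7 members passed, against 26.5% of 12987 genes. Without the barcodes carrying an epicardial marker 2 members passed, Tgfb2 (0.97) and Tgfb1 (0.74, adjusted p = 0.039). The Eng difference was then 0.42 (adjusted p = 0.054), and Acvrl1 was given no fold. TGF-beta responders were higher in mesenchyme-gated cells for 9 of 12 genes and lower for 1, led by Tgfbi (2.36 ± 0.15, adjusted p = 5.37e-15), Postn (2.20 ± 0.09, adjusted p = 6.76e-21), Twist1 (1.87 ± 0.11, adjusted p = 9.69e-16) and the smooth muscle gene Tagln (1.43 ± 0.11, adjusted p = 2.14e-12). Markers of other cells differed between these gates as well, and their part was not tested. At E12.5 the mural markers were at 263 to 265 CPM in mesenchyme-gated and 87.5 to 100.3 in fibroblast-gated cells, and the endocardial markers at 410.2 to 434 and 97.7 to 100.5. At E16.5 the mural sums overlapped (213 to 304 and 219.7 to 251) and the endocardial sums were 149 to 192 and 84.8 to 87.9. Of 12 inhibitors and modulators 6 were higher and 0 lower, with Skil (1.29 ± 0.16, adjusted p = 4.55e-08) and Smad6 (1.27 ± 0.15, adjusted p = 2.55e-08) the largest. For the change from E12.5 to E16.5, 1 of 7 members differed between these gates, Tgfb3 (1.13 ± 0.32 more in mesenchyme-gated cells, adjusted p = 0.039), against 3.55% of all genes. That call was lost in 9 of 16 alternatives, and without the barcodes carrying an epicardial marker the difference was 0.16 (adjusted p = 0.99993).

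**Figure D3:**
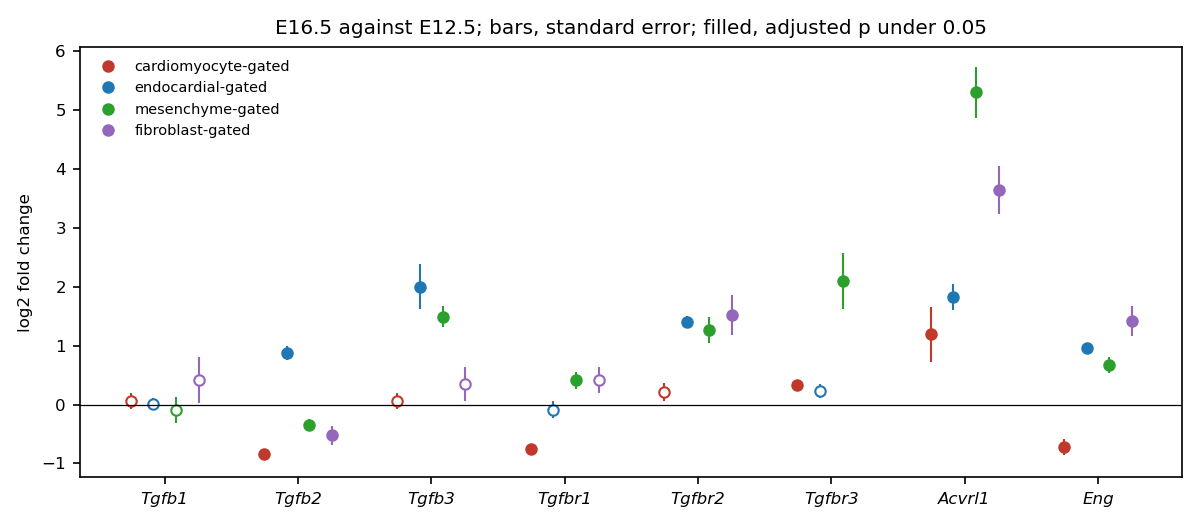
Log2 fold change from E12.5 to E16.5 (vertical axis) of the 8 genes in 4 gated classes. Points are edgeR estimates, bars are standard errors, and filled points have an adjusted p under 0.05. Tgfb2 is above 0 in endocardial-gated cells (0.87) and below 0 in cardiomyocyte-gated cells (-0.84), and Acvrl1 reaches 5.30 in mesenchyme-gated cells.

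Tgfb2 and Tgfbr1 both fell in cardiomyocyte-gated cells. From E12.5 to E16.5 Tgfb2 went from 49.0 and 47.5 through 53.6 and 54.1 to 24.1 and 24.0 CPM (-0.84 ± 0.07 on the log2 scale, adjusted p = 2.29e-09), and Tgfbr1 from 34.6 and 36.1 through 34.2 and 32.4 to 18.9 and 18.3 (-0.76 ± 0.07, adjusted p = 1.11e-08). Low-count barcodes of the same libraries held Tgfb2 at 29.7 and 41.3, then 35.3 and 36.8, then 21.6 and 18.9. The muscle levels of E16.5 and of E12.5 replicate 2 were close to those values, and the amount added by free RNA was not tested. In both genes the fall lay between E14.5 and E16.5, and at P3 they stood at 15.2 (14.4 to 15.9) and 14.6 (13.9 to 15.3). Tgfbr3 rose slightly, by 0.32 ± 0.08 (adjusted p = 0.0015), from 11.5 and 13.4 to 14.1 and 13.8. Eng (-0.73 ± 0.14, adjusted p = 0.00016) and Acvrl1 (1.20 ± 0.47, adjusted p = 0.032) also passed, but at levels of at most 3.26 and 0.25, under those of low-count barcodes (31.0 to 46.7 and 1.04 to 3.596). Their changes are not read as expression of muscle cells, and the part of free RNA in them was not tested. The Acvrl1 call was lost in 7 of 11 alternatives, among them without either E12.5 library (1.14 and 1.25, adjusted p = 0.12 each), without either E14.5 library (1.20 each, adjusted p = 0.059) and without E16.5 replicate 2 (1.33, adjusted p = 0.061). Thus 5 of 8 members passed, where 62.9% of 14013 genes did. Marker sums of other cells moved in this gate over the same stages, from 313 to 88.3 to 93.7 CPM for the 6 mural, from 159 to 179 to 64.3 to 66.4 for the cushion and valve, and from 57.6 to 64.1 to 8.34 to 11.5 for the epicardial markers, while the coronary markers went from 47.6 to 49.9 to 102 to 104. Their part in these changes and in those of the next paragraph was not tested.

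Most genes around the members also changed in the same cells, as did 62.9% of all genes. Of the 13 TGF-beta responders 8 fell and 4 rose between E12.5 and E16.5, with Tagln (-4.00 ± 0.10, adjusted p = 1.78e-16), Twist1 (-3.15 ± 0.24, adjusted p = 2.29e-09), Tgfbi (-2.51 ± 0.14, adjusted p = 1.18e-11) and Snai1 (-2.09 ± 0.30, adjusted p = 7.75e-06) the largest falls. Id1 (-2.23 ± 0.12), Id2 (-2.15 ± 0.09) and Id3 (-2.03 ± 0.10) fell as well (largest adjusted p = 7.92e-12). Tmem100, also on the list of ligands and responders of Acvrl1 and Eng, rose (1.24 ± 0.25, adjusted p = 0.00029). The list of inhibitors and modulators was divided, with 3 higher and 5 lower of 12. Smad6 (-1.25 ± 0.09, adjusted p = 5.89e-10) and the pseudoreceptor gene Bambi (-1.16 ± 0.07, adjusted p = 3.47e-11) fell, and Zfyve9, a Smad anchor, rose by 0.64 ± 0.08 (adjusted p = 6.44e-07). The median change of the responder list was -1.33 against 0.01 for all genes.

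Between E10.5 embryos and E12.5 hearts, 2 of 6 tested members passed in cardiomyocyte-gated cells, against 38.2% of 14523 genes. Tgfb2 was 58.0 and 76.6 CPM at E10.5 and fell by 0.33 ± 0.11 on the log2 scale (adjusted p = 0.024), which without E10.5 replicate 1 was -0.52, a call lost without E10.5 replicate 2 (-0.08, adjusted p = 0.68) or E12.5 replicate 2 (-0.27, adjusted p = 0.072). Eng rose by 1.5 ± 0.46 (adjusted p = 0.0125) from 6 UMIs in all at E10.5, at levels under those of the low-count barcodes at both stages (9.05 to 10.4 and 39.1 to 44.2). This rise of Eng is not read as expression of muscle cells either, and the part of free RNA in it was not tested. Without E10.5 replicate 2 the change was 1.14 (adjusted p = 0.18). At E8.5 Tgfb2 was already 54.6 (47.1 to 63.0). Stage and tissue cannot be told apart in this step. The gate's own 8 markers went from 18431 to 18617 CPM at E10.5 to 31276 to 32608 at E12.5, and those of other cells from 523 to 554 to 2024 to 2252 (erythroid), from 36.8 to 59.2 to 5.88 to 6.58 (neural), from 179.8 to 200.5 to 313 (mural) and from 219.5 to 283 to 159 to 179 (cushion and valve), and their part was not tested. Under the mitochondrial ceilings of the study 4 members passed, and under stricter gates 0 did.

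Within the cardiomyocyte gate, cells with a Tbx3 UMI, the transcription factor of the conduction system and the atrioventricular canal, carried the most Tgfb2. Their levels went from 137 and 120.5 CPM at E12.5 through 115 and 109 at E14.5 to 63.1 and 56.7 at E16.5, with 26.6 at P3 (22.3 to 31.4). Ventricular-gated cells, those with at least 30 Myl2 and under 5 Sln per 10000 UMIs, held 39.4 and 38.1, then 51.5 and 52.4, then 22.3 and 22.6, and 11.6 at P3 (10.9 to 12.4). The Tbx3-gated cells were above the ventricular-gated cells in each of the 6 tested libraries, by 1.24 ± 0.07 on the log2 scale (adjusted p = 7.84e-16). Tgfbr1 was also higher (0.45 ± 0.07, adjusted p = 6.64e-06), at 47.4 and 47.5 against 32.2 and 33.9 at E12.5. Tgfbr2 was higher by 0.75 ± 0.21 (adjusted p = 0.0048) at levels of 2.39 to 6.31 against 6.05 to 8.89 in low-count barcodes, and without E12.5 replicate 2 the call was lost (0.62, adjusted p = 0.052). Thus 3 of 7 members passed, against 35.8% of 11590 genes.

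Several companion genes were also higher in Tbx3-gated cells, where 35.8% of all genes passed. Of 8 tested genes of latent complexes 7 were higher and 0 lower, among them Itgb8 (3.02 ± 0.19, adjusted p = 2.10e-14), a subunit of an integrin that releases latent ligand, and Thbs1 (1.93 ± 0.24, adjusted p = 1.24e-07), thrombospondin, which activates it. Genes known from mesenchyme, fibroblasts or smooth muscle were higher too, namely Dcn (1.53), Fbn1 (1.18), Twist1 (1.63), Snai2 (1.32) and Tagln (1.14, largest adjusted p = 0.016). At E12.5 the 6 fibroblast markers summed to 27.2 to 34.5 CPM in Tbx3-gated and 26.7 to 29.3 in ventricular-gated cells, the cushion and valve markers to 188 to 190.5 and 163 to 187, and the 6 mural markers to 323 to 365 and 299 to 305. At E16.5 these sums were 67.2 to 80.6 and 37.5 to 38.3, 106 to 119.8 and 68.4 to 70.9, and 175 to 210.1 and 79.4 to 82.7, with up to 4 of 6 cushion and valve markers at 0 in a Tbx3-gated library. Their part in the differences of Tgfb2 and of these lists was not tested. Of 12 inhibitors and modulators 8 were higher and 1 lower, with Smad6 (2.04 ± 0.09, adjusted p = 1.18e-18), Smad7 (1.63 ± 0.09, adjusted p = 2.46e-16) and Bambi (1.05 ± 0.05, adjusted p = 4.72e-17) at the top. Responders were higher for 9 of 12 and lower for 1. Id3 (2.41 ± 0.11), Id2 (2.02 ± 0.07) and Id1 (1.88 ± 0.15) were higher (largest adjusted p = 4.22e-12) and Bmp10, a ligand of Acvrl1 made by trabecular and atrial muscle, was lower (-0.98 ± 0.13, adjusted p = 4.29e-07). The median difference was 1.04 for the latent complex list and 0.65 for the responder list, against -0.01 for all genes.

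Atrial-gated cells, with under 30 Myl2 and at least 5 Sln per 10000 UMIs, differed from ventricular-gated cells in 4 of 6 tested members, against 38.4% of 11590 genes. Tgfb3 was higher in atrial-gated cells (1.27 ± 0.28, adjusted p = 0.00047), at 7.42 and 5.95 CPM against 2.08 and 2.81 at E16.5, with low-count barcodes of those libraries at 3.25 and 4.68. Tgfbr2 was also higher (0.82 ± 0.27, adjusted p = 0.0141), on 9 UMIs in the smallest group, at 2.84 to 7.12 CPM against 6.05 to 8.89 in low-count barcodes. Tgfbr3 was lower (-0.64 ± 0.17, adjusted p = 0.0022), on 13 UMIs in the smallest group, at 7.64 and 7.85 against 14.66 and 14.55 at E16.5. The atrial level of Tgfbr3 was near that of low-count barcodes of those libraries, at 9.76 and 6.46. Tgfb2 was lower on average (-0.39 ± 0.10, adjusted p = 0.0033), a call lost without E14.5 replicate 1 (-0.34, adjusted p = 0.057) and at -0.63 without E12.5 replicate 1, but the average joins stages that differ. Atrial-gated cells held 32.0 and 13.7 in the E12.5 libraries and 29.4 and 36.8 in the next pair, all under the ventricular-gated cells of the same libraries, but 31.4 and 31.4 at E16.5, above the ventricular 22.3 and 22.6. Low-count barcodes held 21.6 and 18.9 in those E16.5 libraries and 29.7 to 41.3 in the earlier ones. The atrial levels before E16.5, the ventricular levels at E16.5 and that of E12.5 replicate 2 were near or below those values. How much free RNA added to these levels was not tested. At P3 the levels were 25.0 (22.6 to 27.6) and 11.6.

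That change was tested after its values were seen. From E12.5 to E16.5 Tgfb2 changed by 1.25 ± 0.26 more on the log2 scale in atrial-gated than in ventricular-gated cells (adjusted p = 0.0014). It was the 1 of 6 tested members to pass, against 7.37% of 11590 genes. The E12.5 atrial-gated sums held 55 and 64 barcodes, and the difference was 1.96 without E12.5 replicate 1 and 0.88 without E12.5 replicate 2 (adjusted p = 0.0499). In the same test the Acvrl1 ligand gene Bmp10 (4.22 ± 0.26, adjusted p = 6.75e-14) and Tagln (3.60 ± 0.21, adjusted p = 3.96e-14) had the largest differences among the pathway genes, both towards atrial-gated cells.

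**Figure D4:**
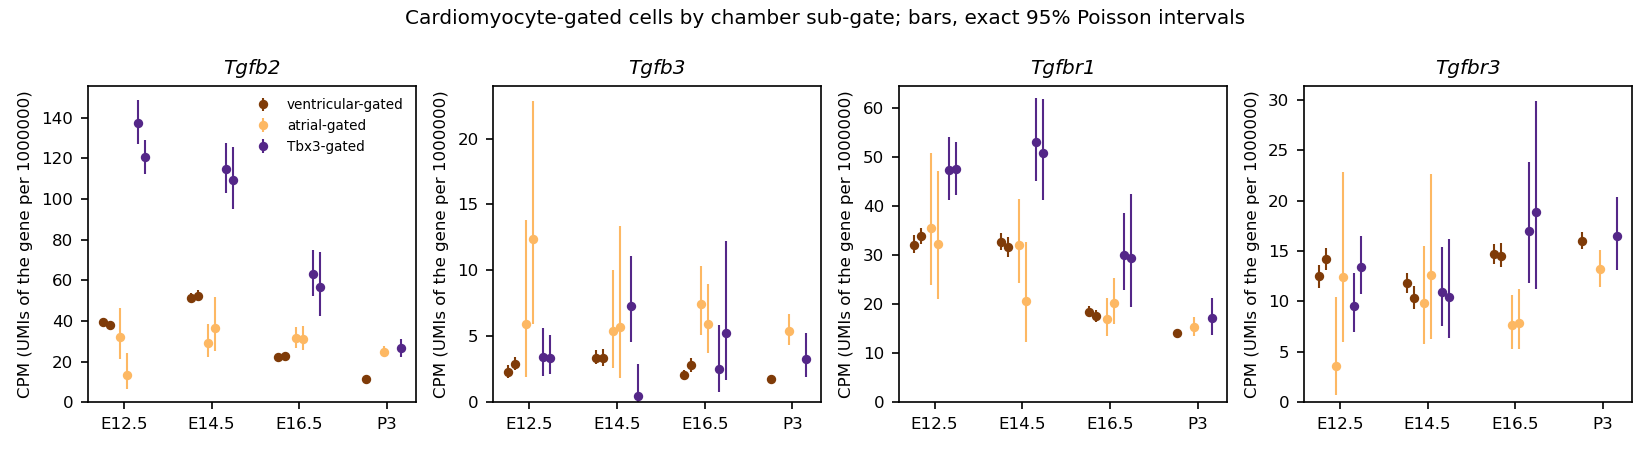
Tgfb2, Tgfb3, Tgfbr1 and Tgfbr3 in CPM (linear vertical axes) in ventricular-gated, atrial-gated and Tbx3-gated cardiomyocytes from E12.5 to P3. Each point is 1 library and bars are exact 95% Poisson intervals. Tbx3-gated cells have the most Tgfb2 in every embryonic library shown, 137 and 120.5 at E12.5, and atrial-gated cells pass ventricular-gated cells at E16.5.

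Macrophage-gated cells, 36 to 52 per library, had 3 members above the filter on low counts, and 0 of them passed between E14.5 and E16.5, against 1.67% of 4487 genes. Tgfb1 changed by -0.53 ± 0.22 (unadjusted p = 0.027, adjusted p = 0.30, edgeR across all genes), the 1 member with an unadjusted p under 0.05. Tgfbr1 and Tgfbr2 changed by -0.23 ± 0.22 and 0.08 ± 0.35. The other 5 members, Acvrl1 and Eng among them, held too few UMIs to be tested, and DESeq2 also called 0.

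The genes whose levels followed each member most closely were found over the 32 class and library sums of the heart libraries with at least 20 barcodes, by Pearson's r of log2 levels with a pseudocount of 10 over 12949 genes. These sums share libraries and differ in depth, so r is a description. Eng was followed most closely by Tm4sf1 (r = 0.98), a surface protein of endothelium, then by Notch1 and Hdac7. Tgfb2 was followed by Igsf3 (r = 0.97), Creb3l2 and Maged1, and Tgfb3 by Mfap4 (r = 0.95), Dcn and Gxylt2. Tgfb1 and Tgfbr2 shared Adam15 among their nearest 3 genes (r = 0.95 for each), next to Fxyd5 (r = 0.96) and Tspan14 for Tgfb1 and Ppp1r15a and Pxn for Tgfbr2. Tgfbr1 was nearest to Abhd12 (r = 0.96), Tgfbr3 to Lrig1 (r = 0.97), and Acvrl1 to Sh3bp5, with the lowest value of the 8 (r = 0.83).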

How the data were processed

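The labels describe 10x Genomics 3' libraries of cells from wild-type mouse embryos and hearts. The deposited matrices hold UMI counts (a gene by a barcode), whole numbers that the authors did not normalize. File headers name Cell Ranger 3.1.0 (embryonic stages) and 3.0.0 (P3), and the submitters' processing notes name Cell Ranger 2.1.1, Seurat 3.1.1 and mm10. The labels and the methods differ in the enzyme and chemistry version. Embryonic matrices list 737280 barcodes and P3 lists 10964 that the authors' software had kept, with 2 records pooled, and the matrix of E16.5 replicate 1 also joins 2 records. The other E8.5 replicate was not analysed here.

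Barcodes with at least 2000 UMIs, at most 10% globin UMIs and exactly 1 gate were summed per class and library in Python 3.11.15 (numpy 2.4.6, pandas 2.3.3, scipy 1.17.1). No doublet caller was run: 3104 barcodes that met several gates were left out, and an alternative left out the 5% of each library with the most UMIs. The cardiomyocyte gate allows no Cdh5, so a doublet of a cardiomyocyte and an endothelial cell with Cdh5 could stay in an endothelial gate. Kept barcodes numbered 4928 to 14675 per library, with medians of 10268 to 24516 UMIs. Sums of at least 20 barcodes from the 6 heart libraries (E10.5 added for 1 cardiomyocyte comparison) were tested with edgeR 4.0.16 in R 4.3.3: TMM factors, filterByExpr, the quasi-likelihood test and Benjamini-Hochberg adjustment over all genes tested, threshold 0.05. Class comparisons average the stages of the fit and, where several classes are joined, their log2 levels. Stage comparisons were fitted within a class. DESeq2 1.42.0 was an alternative. The coronary and macrophage sums at E12.5 were under 20 barcodes, so, unlike the plan, their stage change is E16.5 against E14.5 and class comparisons that include them average E14.5 and E16.5. A gene with 3 UMIs or fewer in a group got no fold. E8.5 and P3 had 1 library and no test, and exact 95% Poisson intervals cover counting error only.

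On simulated counts the test recovered 72.7% of genes changed 2-fold and 97.9% of those changed 4-fold in the endocardial stage comparison (10698 genes), with 3.5% of its calls false. The simulation changed 99 and 96 of those genes, with sums drawn independently from 1 mean profile. In the data 45.1% of genes were called in that comparison, so these rates may not hold there. Classes of 1 library come from the same suspension, so library was tried as a block. Same-library deviations of class sums correlated at a median of 0.229 (36 pairs, -0.024 to 0.869). Same-numbered libraries of different stages correlated at a median of 0.130 (23 values, -0.083 to 0.571), and the labels do not say that a number marks a batch.

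The members, gates, marker lists and pathway lists were chosen with earlier results of these data known. Pathway lists held 13 genes of latent complexes (12 measured under 1 row each, since Ltbp4 is listed under a repeated symbol), 6 Smads, 12 inhibitors and modulators, 13 responders and 6 ligands and responders of Acvrl1 and Eng. Named genes were all 8 members, the 3 genes nearest to each by Pearson's r, and from each list up to 4 genes with the largest change among those past the threshold. The values of 1 responder gene that this rule named are not reported here. Coordinates are of GRCm38 (GENCODE M21 for exons, RefSeq for promoters, with an entry for 5 of 8 members).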

Additional observations from a re-analysis of the deposited data

Results flagged for a closer look

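The changes of 2 genes from E12.5 to E16.5 differed between classes by a test of the difference itself. Tgfb3 changed by 1.13 more on the log2 scale in mesenchyme-gated than in fibroblast-gated cells (edgeR quasi-likelihood test, adjusted p = 0.039), where the mesenchyme-gated libraries went from 12.4 and 12.9 to 30.4 and 37.7 CPM and the fibroblast-gated libraries from 15.2 and 21.9 to 24.7 and 20.4. The fibroblast gate lost its barcodes with epicardial marker UMIs over the same stages, from 77.2% and 77.4% to 14.3% and 11.1%, and without such barcodes the difference was 0.16. Tgfb2 changed by 1.25 more in atrial-gated than in ventricular-gated cells (adjusted p = 0.0014), and the direction was seen before it was tested. It ranged from 0.88 (without E12.5 replicate 2, adjusted p = 0.0499) to 1.96 (without E12.5 replicate 1) over the fits that left out 1 library, and was lost when cells were thinned to 2000 UMIs (0.97, adjusted p = 0.61). The E12.5 atrial-gated libraries differed from each other, at 32.0 and 13.7 CPM.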

How the results depend on the processing

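Of 63 member values past the threshold, 43 kept their call in every alternative run, 47 in every alternative other than thinning, and 0 reversed. Another 9 passed in an alternative only, and 39 passed in none, 26 of which changed sign somewhere. Thinning to 2000 UMIs left 3 members called in cardiomyocytes and 3 in mesenchyme (E16.5 against E12.5), 0 in fibroblasts, 1 in coronary cells, 0 in cardiomyocytes from E10.5, 3 for endocardial against coronary, 2 for mesenchyme against fibroblast, 2 each for endothelium, cardiomyocytes and macrophages against the other classes, and 0 for the mesenchyme minus fibroblast change, atrial against ventricular and the atrial minus ventricular change. DESeq2 left 2 in fibroblasts and 2 in coronary cells. Leaving out barcodes with an epicardial marker UMI left 1 in fibroblasts, 2 for mesenchyme against fibroblast and 0 for their change. Coronary cells kept 2 without the largest 5% of barcodes and 2 with sums of at least 5 barcodes. Cardiomyocytes from E10.5 had 0 with stricter gates and 4 with mitochondrial ceilings, which left 2 for atrial against ventricular, and 0 remained for the mesenchyme minus fibroblast change with no filter on low counts.

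Leaving out 1 library, which leaves 1 in that stage and assumes that it varies like the others, the members called ranged from 2 to 4 in fibroblasts, 2 to 4 in coronary cells, 0 to 2 in cardiomyocytes from E10.5, 3 to 5 each for endothelium, cardiomyocytes and macrophages against the other classes, 0 to 1 for the mesenchyme minus fibroblast change and 2 to 4 for atrial against ventricular. The counts of 3 for those class comparisons came without E14.5 replicate 1, where more members fell to 3 UMIs or fewer. The other reversed values had not passed as reported but each passed in 1 alternative (Tgfb1 in mesenchyme without E16.5 replicate 2, the rest under mitochondrial ceilings): Tgfb3 in cardiomyocytes from E12.5 (-0.0037 without the largest barcodes, and -0.0846 to 0.1981 without 1 library), Tgfb1 in mesenchyme (0.0551 thinned, -0.7785 to 0.4447 without 1 library), and from E10.5 Tgfbr3 (-0.3251 thinned) and Tgfb3 (-0.8166 to 0.0558 without 1 library). With the replicate block, the member calls changed for Acvrl1 in macrophages alone (adjusted p = 0.056), and all-gene calls went from 75 to 9 in macrophages by stage and from 304 to 569 for the endocardial minus coronary change.

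Over all genes, thinning took the calls from 8815 to 5601 in cardiomyocytes, 4939 to 1596 in endocardial cells, 3029 to 904 in mesenchyme, 1851 to 373 in fibroblasts, 1633 to 322 in coronary cells, 75 to 7 in macrophages, 5550 to 1668 in cardiomyocytes from E10.5, 6331 to 2028 for endocardial against coronary, 3438 to 923 for mesenchyme against fibroblast, 5968 to 2413 for endothelium, 8630 to 4416 for cardiomyocytes and 6038 to 2720 for macrophages against the others, 4450 to 1150 for atrial and 4147 to 1534 for Tbx3-gated against ventricular. The 3 changes between classes went from 304 to 15 (endocardial minus coronary), 461 to 64 (mesenchyme minus fibroblast) and 854 to 180 (atrial minus ventricular). DESeq2 gave 3284 in endocardial cells, 1860 in mesenchyme, 812 in fibroblasts, 649 in coronary cells, 28 in macrophages and 506 for endocardial minus coronary. Without epicardial marker barcodes there were 871 in fibroblasts, 1255 for mesenchyme against fibroblast and 35 for their change. Coronary cells had 684 without the largest barcodes and 1057 with sums of at least 5, and endocardial minus coronary 154 without the largest barcodes. With no filter macrophages had 165 and endocardial minus coronary 485. Stricter gates gave 3048 in cardiomyocytes from E10.5 and 2284 for mesenchyme against fibroblast, and mitochondrial ceilings 499 for atrial minus ventricular. Without 1 library the counts reached 1193 in fibroblasts, 125 and 280 in macrophages, 112 to 130 for endocardial minus coronary, 161 to 289 for mesenchyme minus fibroblast, and 492 and 546 for atrial minus ventricular.

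RLE and TMM moved the median of all genes by under 0.1. Depth limits cardiomyocyte Acvrl1 (12 UMIs at E12.5), mesenchyme Acvrl1 (7) and, in macrophages, the 5 members too low to test by stage. The causes of these shifts were not tested.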

Other observations

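In macrophage-gated cells, many genes around the members held too few UMIs for a fold. Over E14.5 and E16.5, 7 of 13 TGF-beta responders and 8 of 11 tested genes of latent complexes had 3 UMIs or fewer in a group of the comparison with the mean of the other 5 classes. Of the 6 responders left, 2 were higher and 3 lower, where 46.5% of all genes passed. The higher ones were Tgfbi (2.41 ± 0.23 on the log2 scale, adjusted p = 2.69e-11, edgeR) and Zeb2 (2.37 ± 0.10, adjusted p = 2.16e-21), and the lower ones included Acta2 (-3.63 ± 0.39, adjusted p = 6.56e-10) and Fn1 (-2.88 ± 0.20, adjusted p = 5.46e-15). Of the 3 genes of latent complexes left, Thbs1 (1.62 ± 0.27, adjusted p = 4.36e-06) and the integrin gene Itgav (1.23 ± 0.22, adjusted p = 1.19e-05) were higher.

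At P3, with 1 pooled library and no test, fibroblast-gated cells held Tgfbr3 at 23.7 CPM (exact 95% Poisson interval 19.4 to 28.6, counting error only), with 30.2 and 15.99 in the barcodes of the 2 pooled records, against 5.65 and 5.36 at E16.5 and 0.69 and 1.02 at E12.5. Mesenchyme-gated cells of the E10.5 embryos held Tgfb2 at 30.4 and 28.8, against 231 and 224 in E12.5 hearts, and Eng at 5.33 and 4.51, against 53.0 and 54.1, a step in which stage and tissue cannot be told apart.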
